A study of Mus musculus with 12 samples.

Results

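The comparison set white adipose tissue of control mice collected after 5 weeks against that of control mice collected after 1 week, across all probe sets and with no cold exposure in either group. Its members are the 6 arrays whose titles give control housing, 3 at each time, out of 12 arrays in the series. The other 6 arrays come from mice kept in the cold for 1 or 5 weeks, 3 at each time, and are used here for the error estimate and to set the change over the same weeks in cold beside that in controls. The control tissue is the reference for the cold groups at each time, and the comparison asks whether that reference itself stayed the same.

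All mice were C57/BL6 males, given as 6 to 8 weeks old, with no transgene or deletion in any group. The labels disagree on the control temperature: the titles say 30 °C, the source names say room temperature, and the protocols mention housing at 22 °C and an adaptation at 18 °C for 1 to 3 weeks before the move to 4 °C. Whether the controls went through that adaptation, which fat depot was taken, and whether each array is 1 animal or a pool is not stated. The spread behind each p-value is thus that between arrays and could be technical. The labels give no hour of collection. Weeks of housing, age at collection and hour of collection cannot be told apart in this design.

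White adipose tissue is bulk tissue: adipocytes, blood vessels, immune cells, connective tissue progenitors and any neighbouring tissue taken with it contribute RNA together. In such samples fewer cells of a type and less RNA per cell cannot be told apart. The adipocyte identity was plain in all 6 control arrays. The adipocyte hormone gene Adipoq stood at log2 signals of 14.76, 14.75 and 14.63 at 1 week and 14.83, 14.81 and 14.73 at 5 weeks, and the adipogenic receptor Pparg at 11.80 to 12.07 over both groups. None of 21 tested white adipocyte genes was called, beside 2.64% of all genes. Their mean signal was 11.41 to 11.64 at 1 week and 11.50 to 11.62 at 5 weeks. Of 25 epithelial, epididymal and mesothelial markers on the array, 6 passed the filter on dim signals and none was called.

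The arrays were not alike in RNA quality. The Gapdh control probe sets at the 3′ end exceeded those at the 5′ end by 0.90, 3.00 and 3.12 log2 units in the 1-week controls, and by 0.03, -0.01 and -0.08 in the 5-week controls, so the groups did not overlap. A larger gap is the usual sign of RNA that was shorter or copied less far. For Actb the same gap was 1.22 to 1.35 against 1.04 to 1.16. The 5-week arrays also resembled each other more, with pairwise correlations of 0.994 to 0.995 against 0.985 to 0.990 and a median SD per probe set of 0.10 against 0.15. Each result below therefore has, where it matters, its value with the Gapdh gap as a covariate and without 1-week control arrays 2 and 3. Dropping those leaves a single 1-week control array, whose spread is then taken from the other groups.

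Over 26510 probe sets tested, 883 (3.33%) passed an adjusted p of 0.05 in the moderated limma test with Benjamini-Hochberg adjustment, the threshold for what is called here. Of these, 562 (2.12%) rose from 1 to 5 weeks and 321 (1.21%) fell. Taking each gene by its brightest probe set, 340 of 12855 genes (2.64%) were called, 173 up (1.35%) and 167 down (1.3%), with 53 rises and 33 falls of at least 2-fold. By comparison, 3829 genes (29.8%, and 29.9% of probe sets) had 3 arrays at 5 weeks that all lay beyond the 3 at 1 week, 1344 above (10.5%) and 2485 below (19.3%). The median change over all genes was -0.04 log2 units and the median SE was 0.13. The count depended on single arrays: it was 1634 without 1-week array 1, 295 without array 2 and 353 without array 3, and 267, 232 and 325 without 5-week arrays 1, 2 and 3. With the Gapdh gap as a covariate 102 probe sets were called, and 113 without 1-week arrays 2 and 3. All 883 kept their direction in both, and 77 of them kept their call with the covariate. None of the 340 called genes had overlapping 1-week and 5-week control arrays. Leaving out control arrays could therefore not reverse their direction.

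The list of largest rises was led by a muscle myosin, clock genes and an antibody chain. The 12 rises were Myh1, Nr1d1, Apobec2, Igha, Dbp, Dhdh, Plvap, Mb, Igk, Smpx, Crim1 and Prr32. The 12 falls were Rraga, Nfil3, Mup10, Hsd17b12, Slc27a2, Gabra3, Elf2, Spr, Vapb, Ap2b1, Cyp39a1 and Taf8. Among them, 3 clock genes, 4 skeletal muscle genes, 2 antibody chain genes and an endothelial gene belong to groups described in turn.

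The circadian clock is a feedback loop of transcription factors that runs in almost every cell, fat cells included. Bmal1, written Arntl on this array, pairs with Clock at E-boxes and drives the Per and Cry genes, whose proteins inhibit the pair. The same pair drives Nr1d1 and Nr1d2, which encode the REV-ERB repressors. These act at ROR elements and lower Arntl, Nfil3 and Cry1. Dbp and Tef are output factors of the loop that act at D-boxes, where NFIL3 opposes them. In rodents the transcripts of Arntl and of Dbp peak at opposite times of day.

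Promoter windows of 17 of the 21 listed clock genes were found in the RefSeq promoter table (build GRCm38.p6), 22 windows in all, each the 250 bases before a start. They were searched on both strands for 3 motifs, the E-box CACGTG, the D-box core TATGTA and the ROR hexamer AGGTCA, which share no overlapping match in these windows. Across all 32851 windows of this length the E-box occurred in 6.02%, the D-box core in 7.8% and the ROR hexamer in 14.0%. In the clock windows the E-box was found for Bhlhe41, Ciart, Cry1, Per1 and Tef, the D-box core for Per3, and the ROR hexamer for Clock, Nfil3, Nr1d2 and Per1. Among the 9 clock genes that moved between the control groups, 4 had a match in their first or only window and are printed, 2 that rose and 2 that fell, to show which letters lie upstream of genes that moved in opposite directions. Clock had its match in 1 of 3 windows, Dbp, Nr1d1 and Arntl had none in these windows, and Bhlhe40 was not matched. A match is a description of the sequence and not a mapped binding site. In each sequence, written 5′ to 3′ on the gene's strand and ending at the base before the start, capitals mark the motif.

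Nr1d2, chr14:18239107-18239356, minus strand, ROR hexamer: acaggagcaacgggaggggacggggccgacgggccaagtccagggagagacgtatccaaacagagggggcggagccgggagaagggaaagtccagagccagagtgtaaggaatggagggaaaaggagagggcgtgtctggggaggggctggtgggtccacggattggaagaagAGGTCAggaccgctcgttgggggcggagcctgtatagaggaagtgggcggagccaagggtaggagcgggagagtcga
Tef, chr15:81802423-81802672, plus strand, E-box: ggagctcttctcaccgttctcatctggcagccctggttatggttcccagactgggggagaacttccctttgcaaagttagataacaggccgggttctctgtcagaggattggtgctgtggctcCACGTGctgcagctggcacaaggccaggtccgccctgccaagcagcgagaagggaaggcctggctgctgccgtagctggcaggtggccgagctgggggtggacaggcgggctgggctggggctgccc
Cry1, chr10:85185055-85185304, minus strand, E-box: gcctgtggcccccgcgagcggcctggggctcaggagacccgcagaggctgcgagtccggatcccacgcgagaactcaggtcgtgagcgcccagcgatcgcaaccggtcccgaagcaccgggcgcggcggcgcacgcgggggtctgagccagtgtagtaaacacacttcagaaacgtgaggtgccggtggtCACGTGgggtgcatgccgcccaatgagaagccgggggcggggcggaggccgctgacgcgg
Nfil3, chr13:52981040-52981289, minus strand, ROR hexamer read on the other strand: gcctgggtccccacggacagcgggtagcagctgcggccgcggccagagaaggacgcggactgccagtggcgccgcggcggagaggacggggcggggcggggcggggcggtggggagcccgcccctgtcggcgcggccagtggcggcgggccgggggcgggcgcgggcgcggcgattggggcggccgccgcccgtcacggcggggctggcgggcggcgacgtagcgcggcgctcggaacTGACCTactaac

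Clock genes moved as opposed arms between the 1-week and the 5-week controls. Of 6 tested activators and night-phase factors 4 fell, none rose and the median change was -0.82 log2 units. Of 13 tested repressors and output factors 5 rose, none fell and the median was 0.36. Over all genes 1.3% fell and 1.35% rose.

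Dbp, the D-box output factor (probe set 1438211_s_at), stood at 6.64, 7.18 and 7.05 in the 1-week controls and at 9.46, 9.54 and 9.85 in the 5-week controls. All 3 later arrays lay more than 2 log2 units above the highest earlier one. The rise was 2.66 log2 units (SE 0.17, n = 3 a group), or 6.31-fold, with an adjusted p of 5.03e-05 in the limma fit. Its other probe set rose by 2.27. Nr1d1, the REV-ERB alpha repressor (1426464_at), was at 5.39, 3.85 and 5.45 and then at 8.29, 8.16 and 8.16. The early arrays were scattered and the late ones were nearly identical, with no overlap, and the rise was 3.30 (SE 0.36, adjusted p 0.00125). Nr1d2, the REV-ERB beta repressor (1416958_at), was at 9.13, 9.74 and 9.85 and then at 10.72, 10.77 and 10.92, a rise of 1.23 (SE 0.19, adjusted p 0.00835).

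Tef, a relative of Dbp that binds the same D-boxes, was at 8.26, 8.79 and 8.19 and then at 9.34, 9.31 and 9.04, a rise of 0.82 (SE 0.15, adjusted p 0.0189). One of its other probe sets differed by 0.89 and the other by 0.02, and neither was called. Bhlhe40, a repressor that competes at E-boxes, was at 9.09, 9.44 and 7.95 and then at 10.15, 10.32 and 10.20, a rise of 1.40 (SE 0.31, adjusted p 0.0361). 1-week array 3 was the low one, and without it the change was 0.96 and still called.

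On the other arm, Arntl, the core activator BMAL1 (1425099_a_at), was at 8.45, 8.63 and 8.41 and then at 7.42, 7.43 and 7.32. Every 5-week array lay below every 1-week array, and the fall was 1.10 log2 units (log2 change -1.10, SE 0.09, adjusted p 0.00017). Nfil3, the D-box repressor (1418932_at), was at 7.77, 7.72 and 7.81 and then at 5.65, 5.72 and 5.61. Both groups were tight and far apart, with a change of -2.11 (SE 0.23, adjusted p 0.00148). Cry1, an inhibitor of the BMAL1 and CLOCK pair that peaks late in the cycle (1433733_a_at), was at 9.09, 8.96 and 8.70 and then at 7.68, 7.78 and 8.11, a change of -1.06 (SE 0.18, adjusted p 0.0138). Clock, the partner of BMAL1, was at 9.73, 9.60 and 9.65 and then at 8.95, 9.09 and 9.20, a change of -0.58 (SE 0.14, adjusted p 0.0477). Its 3 other tested probe sets changed by 0.11, -0.18 and -0.36, and none was called.

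The Period genes, which are direct targets of the BMAL1 and CLOCK pair, were not called. Per1 changed by 0.28 (SE 0.14) at signals of 3.83 to 4.49, close to the filter, Per2 by 0.00 (SE 0.36) and Per3 by 0.12 (SE 0.23). Cry2 changed by 0.31 (SE 0.10, adjusted p 0.141), with all 5-week arrays above. The PAR-domain factor Hlf (0.36), the deubiquitinase Usp2 (0.46), the kinase Wee1 (0.18), Bhlhe41 (-0.30), Rora (-0.19) and Npas2 (-0.02) did not pass either.

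Not all of these calls rested equally on the arrays. Dbp, Nr1d1, Nr1d2, Arntl and Nfil3 were called in each of the 6 fits that left out 1 control array. Cry1 was called in 3 of 6 (lost without 1-week array 2 or 5-week array 1 or 2, change -1.19 to -0.97), Tef in 3 (lost without 1-week array 3 or 5-week array 1 or 2, 0.71 to 1.01), Bhlhe40 in 3 (lost without any 1 of the 5-week arrays, 0.96 to 1.71) and Clock in none of 6 (-0.64 to -0.51). The clock members called down were accordingly 2 without 1-week array 2 or 5-week array 1 or 2, and those called up were 3 without 5-week array 1 or 2. With the Gapdh gap as a covariate, Dbp (3.07), Nr1d2 (1.56), Arntl (-1.07) and Nfil3 (-2.52) were called and Nr1d1 changed by 2.95 (adjusted p 0.054). Without 1-week arrays 2 and 3 the calls were Dbp, Nr1d1, Nr1d2, Tef and Arntl, while Nfil3 changed by -2.11 (adjusted p 0.061). The part of RNA quality in the other clock calls was not tested beyond these fits.

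**Figure D1:**
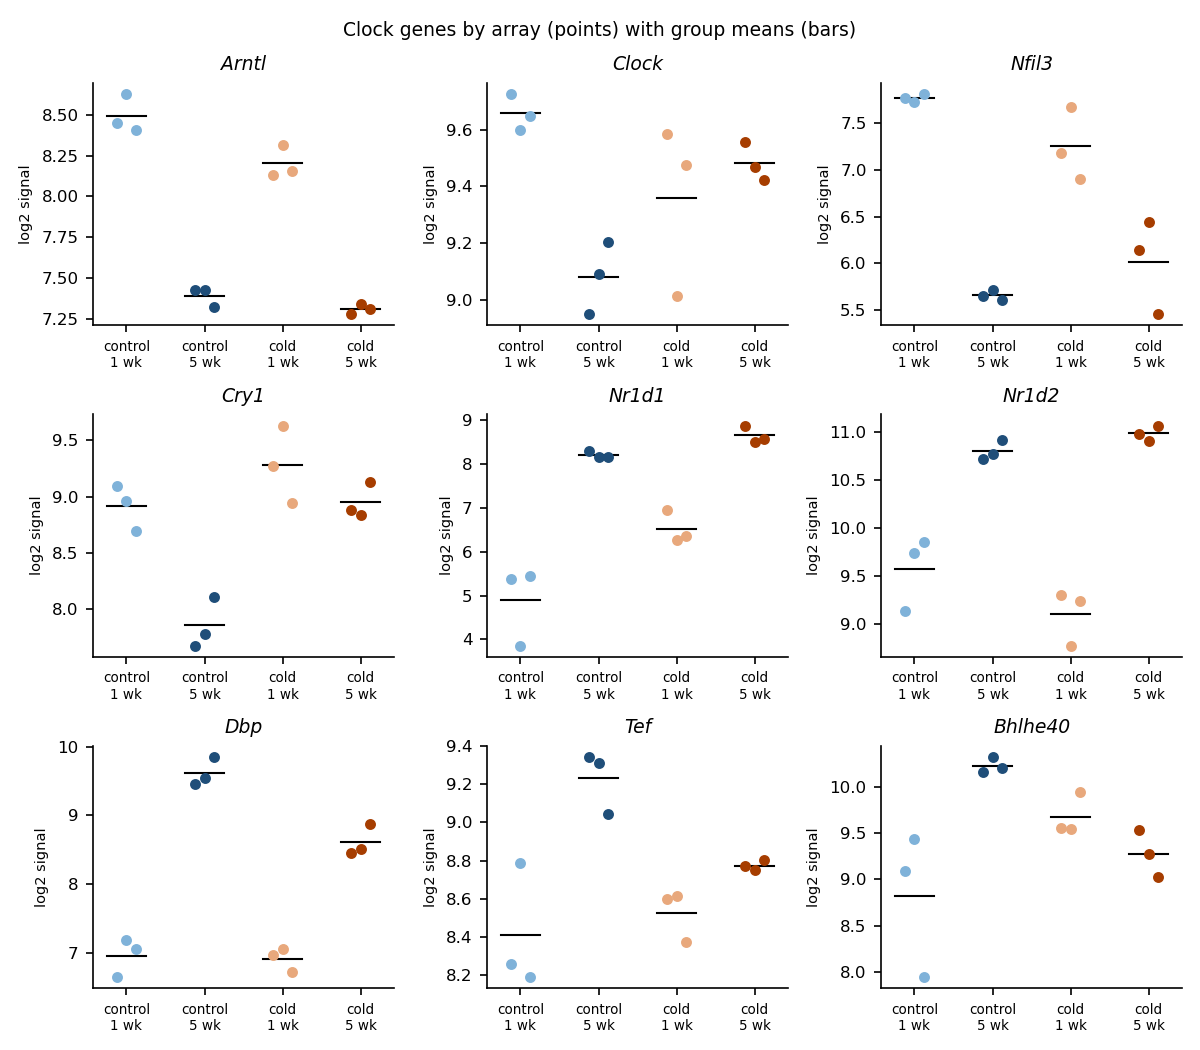
Log2 signal (y axis) of the 9 clock genes called between the control groups, in each of the 12 arrays (points, 3 a group) with the group mean (black bar); y axes differ between panels and do not start at 0. In the control columns Arntl, Clock, Nfil3 and Cry1 are lower at 5 weeks and Nr1d1, Nr1d2, Dbp, Tef and Bhlhe40 higher, with no overlap; in the cold columns Dbp is at 6.72 to 7.06 at 1 week and 8.46 to 8.87 at 5 weeks.

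The same clock genes were read over the same weeks in the cold mice, which share no array with the controls. Dbp rose by 1.70, Nr1d1 by 2.12 and Nr1d2 by 1.88 in cold, and Arntl changed by -0.89 and Nfil3 by -1.23, all called with adjusted p from 0.00028 to 0.004. The difference between the control and the cold change was called for Dbp (0.96 log2 units larger in controls, adjusted p 0.022) and not for Nr1d1 (1.18, 0.12), Nr1d2 (-0.65, 0.11), Arntl (-0.21, 0.26) or Nfil3 (-0.87, 0.087). Bhlhe40 and Clock moved in controls and not in cold, with changes in cold of -0.40 and 0.12. For these the difference itself was called, at 1.80 (adjusted p 0.019) for Bhlhe40 and -0.70 (0.03) for Clock. Rora, the activator at ROR elements, was not called in controls, rose by 0.39 in cold and differed between them by -0.58 (0.012). Tef and Cry1 changed by 0.25 and -0.33 in cold, uncalled, with differences of 0.58 (0.083) and -0.73 (0.07).

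Outside the clock lists, the 5 genes whose signal followed that of Dbp most closely over the 12 arrays were Prg4 (Pearson r 0.91), Fzd4 (0.90), Zfp945 (0.90), Ssh1 (0.89) and Sf3b4 (0.89). Points at the same week share a group mean, so these correlations describe the arrays and carry no p. Fzd4, a Wnt receptor, was at 10.71, 10.59 and 10.58 at 1 week and 11.06, 11.30 and 11.15 at 5 weeks in controls. Ssh1, a phosphatase that reactivates the actin-severing protein cofilin, was at 7.65, 8.18 and 7.83 and then 8.96, 9.06 and 9.17, although its other probe sets changed by -0.15 and -0.06.

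Skeletal muscle transcripts were abundant in the 5-week controls and scarce in the 1-week controls. Muscle fibres express a set of myosins, troponins, sarcomere scaffolds, calcium pumps and energy enzymes that fat does not use at such levels, so these genes mark muscle RNA in a sample. The mean signal of 23 tested sarcomere genes was 4.99, 5.23 and 4.85 in the 1-week controls and 6.56, 6.84 and 6.79 in the 5-week controls. That of 13 tested calcium and energy genes was 4.81 to 4.91 and then 6.20 to 6.39. Among the cold arrays, 1-week array 2 stood alone at a sarcomere mean of 7.86, and the other 5 were at 4.79 to 5.02.

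That one cold array widens the common error estimate for muscle genes. In the fit of all 12 arrays 5 of 36 tested muscle genes were called up and none down, against 1.35% of all genes called up. On the 6 control arrays alone 22 were called up, against 1.07% of all genes, and without the high cold array also 22, against 1.69%. For 27 of the 36 all 5-week arrays lay above all 1-week arrays, against 10.5% of all genes. The filter admitted 7 of the 36 (Myh1, Tnnt3, Neb, Mybpc2, Smpx, Pygm and Apobec2) only through the 5-week controls, so these were bound to be higher there. Among the other 29, all 5-week arrays lay above in 20, and 1 was called on 12 arrays and 15 on the 6 control arrays.

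The fast myosin heavy chain gene Myh1 (1427868_x_at) was at 2.80, 6.56 and 2.81 and then at 10.48, 10.70 and 10.91. 1-week array 2 lay well above the others and still far below the lowest late array. The fitted rise was 6.64 (SE 1.23, adjusted p 0.0187), but 2 of the 1-week signals lay below log2 4, and with these set to 4 it was 5.85. Acta1, the skeletal alpha actin, was at 7.63, 7.20 and 6.88 and then at 11.99, 12.17 and 11.90, a difference of 4.78 (SE 1.45). It did not pass on 12 arrays (adjusted p 0.104) and did on the 6 control arrays (0.00076). Mb, the oxygen store myoglobin, was at 5.56, 5.58 and 5.57 and then at 7.50, 8.17 and 7.76. It rose by 2.24 (SE 0.23, adjusted p 0.000921). It was the only muscle gene called in each fit without 1 control array and with the Gapdh covariate (2.29). Its change without 1-week arrays 2 and 3 was 2.25. Mb did not follow the sarcomere mean on every array. In 1-week cold arrays 1 and 3 it was at 5.96 and 6.41, above all 1-week controls, at sarcomere means of 4.91 and 5.02.

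Several other muscle genes had the same layout, and some did not rise. The change was above 0 in 30 of the 36 tested. The sarcomere genes Myh7 and Myl3 each changed by -0.07. Jph1, Jsrp1 and Mylk2 of the calcium and energy list changed by -0.09, -0.03 and -0.02. Xirp1, mostly under log2 4, did not rise either. Tnnc2, the fast troponin that binds calcium, was at 4.10 to 6.10 and then 9.83 to 10.04, a difference of 4.71 (adjusted p 0.15 on 12 arrays, 0.011 on the 6 control arrays). Tnnt3, fast troponin T, lay below log2 4 on all 1-week arrays and at 7.67 to 7.77 later, which makes it at least 13.3-fold higher when signals under log2 4 are set to 4. Atp2a1, the calcium pump SERCA1 of fast fibres, was at 3.66 to 4.31 and then 7.28 to 7.62 (difference 3.44, adjusted p 0.134 and 0.0019). Ckm, muscle creatine kinase, was at 5.26 to 5.31 and then 8.42 to 8.80 (difference 3.36, adjusted p 0.193 and 0.00035). Apobec2, a muscle-enriched member of the deaminase family, was called on 12 arrays (adjusted p 0.0231) and at least 4.19-fold higher. Smpx and Neb, a small muscle protein and the thin-filament ruler nebulin, were called too, at least 1.51-fold and 1.30-fold higher.

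These calls were fragile on 12 arrays. Myh1 and Apobec2 were called in 2 and Smpx and Neb in 1 of the 6 fits that left out 1 control array, with changes of 6.02 to 7.90, 2.70 to 3.35, 2.05 to 2.11 and 1.70 to 1.92. All 4 were lost without 1-week array 3 or any 1 of the 5-week arrays, and Smpx and Neb also without 1-week array 2. The muscle genes called up were 3 without 1-week array 2, 1 without array 3, and 2, 1 and 1 without 5-week arrays 1, 2 and 3. With the Gapdh covariate, under which 0.0622% of all genes were called up, and without 1-week arrays 2 and 3 (0.132%), 1 was called, Mb. In cold the muscle genes did not rise over the weeks, and none of either list was called up. Called down were 2 of 23 sarcomere genes and 1 of 13 calcium and energy genes, Mb (-0.88, adjusted p 0.017). The median changes of these lists in cold were -0.76 and -0.86. Over all genes 26.8% were called in either direction there. The difference between the control and the cold change was called for 12 of the 36, beside 18.6% of all genes. Among them were Myh1 (8.30), Acta1 (7.94), Tnnc2 (7.38), Tnnt3 (7.19), Atp2a1 (5.87) and Mb (3.12). Of the 12, Myh1, Tnnt3, Apobec2, Smpx and Neb had passed the filter only through the 5-week controls. The cold side of these differences includes the high 1-week array. With signals under log2 4 set to 4, those of Myh1, Tnnt3 and Atp2a1 were 7.08, 5.88 and 5.30.

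Muscle RNA moved with the 2 control groups, and its part in the results on other genes was not tested beyond a covariate. With the sarcomere mean of each array as a covariate, 556 probe sets were called in place of 883, 353 up and 203 down, and 319 of the original calls remained. The genes outside the lists that followed the sarcomere mean most closely over 12 arrays were Tpm2 (r 0.88), a tropomyosin, F8a (0.88), Nelfe (0.87), Vgll4 (0.87) and Pard6a (0.87), again as a description with no p.

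**Figure D2:**
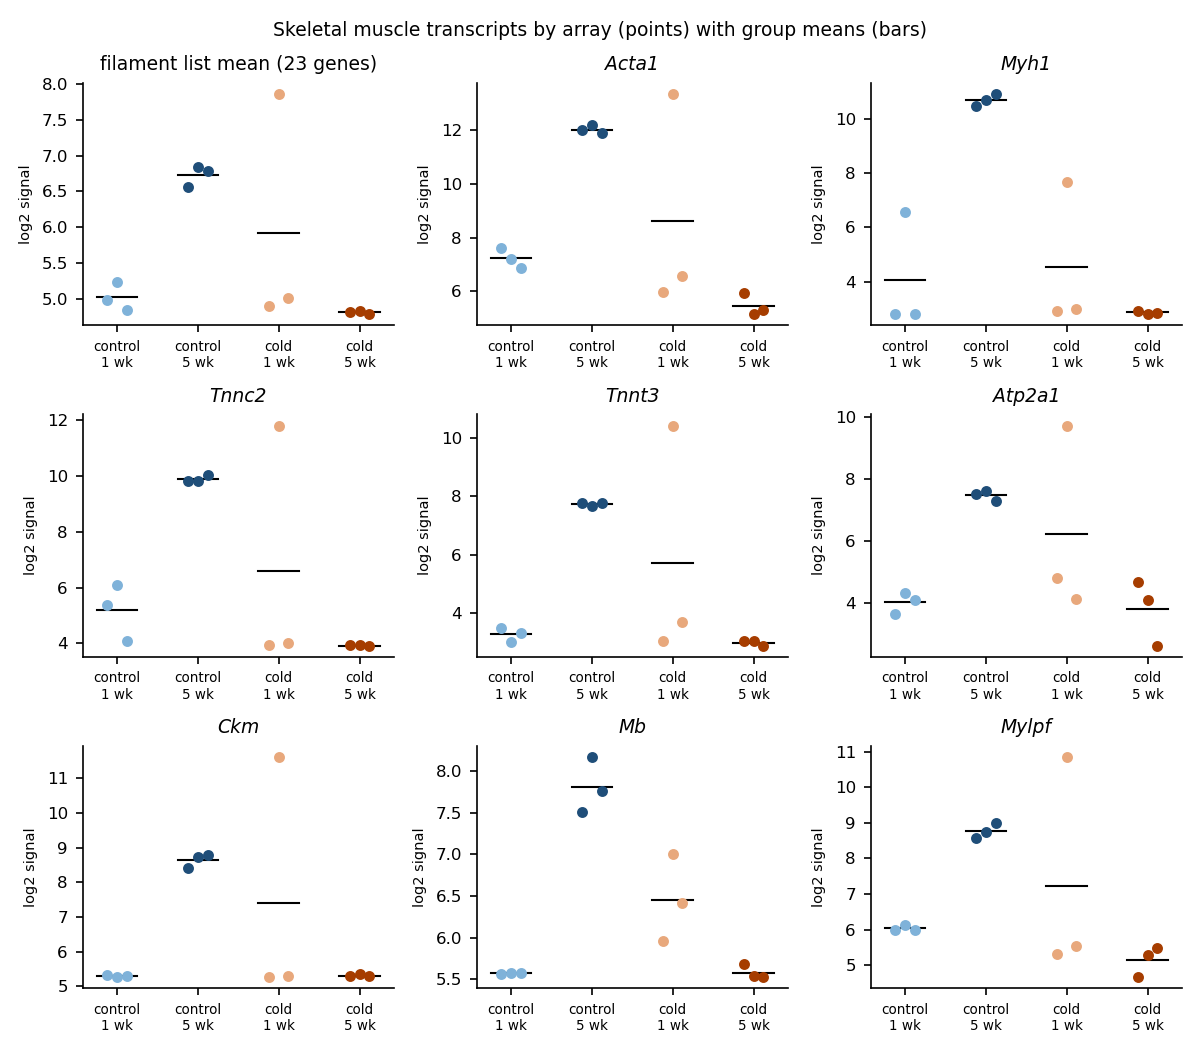
Log2 signal (y axis) by array of the mean over 23 sarcomere genes and of 8 skeletal muscle genes, with points for the 3 arrays of each group and bars for group means; y axes differ between panels and do not start at 0. The 3 control 5-week arrays sit together, at a sarcomere mean of 6.56 to 6.84, above all control 1-week arrays, and 1 cold 1-week array stands above every other cold array.

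An antibody heavy chain rose sharply. Plasma cells, the antibody-secreting end stage of B cells, carry these transcripts at very high levels. Igha, the constant region of the IgA heavy chain (1421653_a_at), was at 8.52, 9.32 and 8.77 at 1 week and at 11.66, 11.65 and 11.81 at 5 weeks. It rose by 2.84 (SE 0.18, adjusted p 4.4e-05), or 7.14-fold, and its 2 other probe sets rose by 2.84 and 3.06. It was called without any 1 control array, with the Gapdh covariate (3.08) and without 1-week arrays 2 and 3 (3.19). In cold it rose by 1.31, with arrays at 7.87 to 8.25 at 1 week and at 9.31 to 9.40 at 5 weeks, and the larger rise in controls differed by 1.53 (adjusted p 0.0059).

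The rest of the antibody list did not move as a block. Igha was the only one of 8 tested members called, beside 2.64% of all genes, and the list's median was 0.29. Jchain, which joins IgA and IgM units, was at 11.48, 9.62 and 11.73 and then 12.29, 12.33 and 12.42, a difference of 1.40 (adjusted p 0.173) with a single low array at 1 week. Ighm, the IgM heavy chain, differed by 0.57 (adjusted p 0.165), and Xbp1, the secretory regulator of plasma cells, by 0.15 (0.325). A kappa light chain probe set, named Igk, was among the largest rises outside the list: 7.91, 6.40 and 7.05 and then 9.39, 9.34 and 9.33, a change of 2.24 (SE 0.36, adjusted p 0.0117). Its 2 other probe sets changed by 0.13 and 0.20. Antibody chain probe sets can pick up near-identical segments of other chains, so which kappa transcripts rose is uncertain. With the Gapdh covariate the change of Igk was 1.17 and was not called (adjusted p 0.18).

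Among myeloid and lymphoid markers few moved. Of 31 tested macrophage genes 2 rose, Il10ra, the receptor chain for interleukin 10, and Itgam, the integrin CD11b, beside 1.35% of all genes, and the median was -0.03. Il10ra was at 4.24, 4.80 and 4.25 and then 6.44, 6.02 and 6.21, a rise of 1.79 (SE 0.24, adjusted p 0.00416). It fell by 1.25 in cold, and the difference of 3.04 was called (adjusted p 0.0019). Some of its cold signals lay below log2 4, and with those set to 4 the difference was 1.96. Itgam was at 5.52, 4.70 and 4.85 and then 6.35, 6.60 and 6.25 (rise 1.38, adjusted p 0.0141). It lost its call without 1-week array 2 or 3 or 5-week array 1 or 2 (1.21 to 1.63). Both lost it with the Gapdh covariate (1.55, adjusted p 0.12, and 0.74, 0.26). C1qa, a complement subunit made by macrophages, was at 10.56, 8.81 and 8.57 and then 11.62, 11.53 and 11.50. The 2 low arrays are the ones with the large Gapdh gap, and the difference of 2.24 (adjusted p 0.0652) became 0.26 with the covariate.

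Cd6, a surface protein of T cells, was at 7.01, 7.02 and 7.23 and then 7.97, 7.60 and 8.02. It was the only one of 28 lymphocyte genes called (0.78, adjusted p 0.0131). Ciita, the master regulator of MHC class II genes, was the only one of 8 in its list (0.66, adjusted p 0.0153, with its other probe set up by 1.54). For both the cold change was lower, at -0.24 and -0.30, and the difference was called (1.01, adjusted p 0.0073, and 0.96, 0.0064). Cd6 was called in 3 and Ciita in 2 of the 6 fits without 1 control array (0.70 to 0.91 and 0.59 to 0.76), and neither with the Gapdh covariate. Each of these lists rests on 1 gene, beside 2.64% of all genes.

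Among endothelial genes 2 of 29 tested were called up and none down, beside 1.35% and 1.3% of all genes. Plvap, which builds the diaphragms of fenestrated and caveolar endothelium (1418090_at), was at 8.38, 7.84 and 7.70 and then 10.24, 10.28 and 10.42. The rise of 2.34 (SE 0.19, adjusted p 0.00017), or 5.06-fold, was called without any 1 control array, with the Gapdh covariate (1.90) and without 1-week arrays 2 and 3 (1.93). In cold Plvap changed by -0.20, and the difference of 2.54 was called (adjusted p 0.0016). The other called endothelial gene was Gpihbp1, the capillary anchor of lipoprotein lipase. It was at 10.19, 8.78 and 8.74 and then 10.55, 10.56 and 10.54, and 1-week array 1 nearly reached the later level. Its change of 1.31 (adjusted p 0.0484) was lost without 1-week array 2 or 3 or any 5-week array (1.07 to 1.79) and was 0.45 with the Gapdh covariate and 0.36 without 1-week arrays 2 and 3. The lymphangiogenic ligand Vegfd fell by 0.69 (log2 change -0.69, adjusted p 0.0275), in 1 probe set of 3, and kept its call in 1 of the 6 fits without a control array (-0.76 to -0.61).

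Several genes repeated the layout of Gpihbp1, with 1-week array 1 near the 5-week arrays and arrays 2 and 3 below. Slc25a1, the mitochondrial citrate carrier, was at 12.30, 10.78 and 10.07 and then 12.61 to 12.65. Lipe, the hormone-sensitive lipase, was at 11.34, 10.22 and 10.00 and then 11.59 to 11.74, and Cidea, a lipid droplet protein of thermogenic fat, at 11.49, 9.53 and 10.01 and then 11.30 to 11.41. None of the 3 was called. With the Gapdh covariate their differences of 1.58, 1.15 and 1.03 became 0.05, 0.03 and -0.21.

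**Figure D3:**
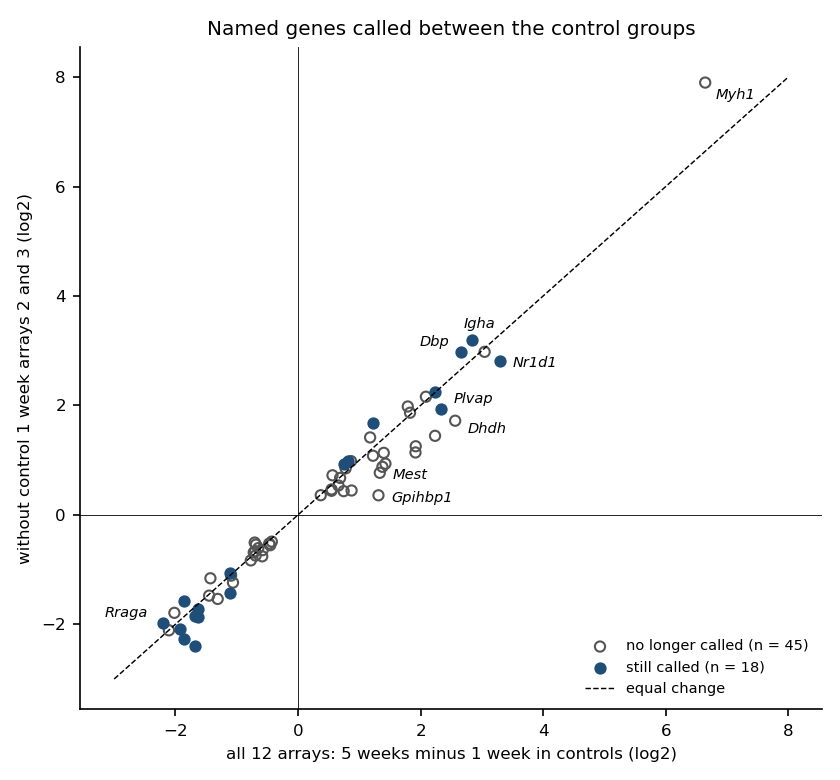
Change from 1 to 5 weeks in controls (log2) of the 63 named genes that were called, fitted on all 12 arrays (x axis) and without the 1-week control arrays 2 and 3 (y axis); filled points kept their call. All points keep their sign, which was bound to be so because the control arrays of called genes do not overlap. Most lose their call, and Gpihbp1 (1.31 and 0.36) and Mest (1.33 and 0.77) lie well below the line of equal change.

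Among the large falls were enzymes and transport proteins. Rraga, the RagA GTPase that brings mTORC1 to lysosomes (1428905_at), was at 8.55, 8.82 and 8.97 and then 6.64, 6.68 and 6.42. The change was -2.20 (SE 0.19, adjusted p 0.00032). Hsd17b12, an enzyme of fatty acid elongation in the endoplasmic reticulum (1450011_at), was at 12.17, 11.94 and 11.93 and then 10.21, 10.20 and 9.87, a change of -1.92 (SE 0.13, adjusted p 7.55e-05). Its other probe set fell too, by 1.96 on the log2 scale. In cold Rraga changed by -2.60 and this Hsd17b12 probe set by -2.05, with differences that were not called (0.40, adjusted p 0.34, and 0.13, 0.66). The other Hsd17b12 probe set changed by -3.67 in cold, a difference of 1.71 that was called (adjusted p 0.0145), so the 2 probe sets do not give the same comparison.

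Vapb, an anchor of membrane contact sites, and Ap2b1, a subunit of the clathrin adaptor AP2, fell by 1.64 and 1.63 (adjusted p 0.000174 and 0.000122). Vapb was at 10.17 to 10.63 and then 8.68 to 8.91, and Ap2b1 at 9.24 to 9.45 and then 7.64 to 7.83, so neither overlapped. In both genes the other probe sets did not move, at -0.03 and -0.19 for Vapb and 0.16 for Ap2b1, so the change belongs to 1 probe set and not plainly to the gene. The same holds for the transcription factor gene Elf2, at -1.68 with the other probe set at 0.03, and for the BMP-binding membrane protein gene Crim1 among the rises, at 1.92 with -0.11. Rraga, Hsd17b12, Vapb and Ap2b1 were called in every fit without 1 control array, with the Gapdh covariate and without 1-week arrays 2 and 3. Elf2 was called in the first and the last of these and had an adjusted p of 0.13 with the covariate, and Crim1 was called in 2 of the 6 fits without a control array (1.46 to 2.25).

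Slc27a2, an acyl-CoA synthetase and fatty acid transporter, was at 4.67, 4.77 and 5.41 at 1 week and below log2 4 on all 5-week arrays. It was at least 1.93-fold lower, and it was the only one of 24 thermogenic and beige adipocyte genes called, beside 2.64% of all genes. In cold it was far higher, at 8.23 to 8.69 over both times, and did not change (-0.08), and the difference was called (-1.78, adjusted p 0.0041). Ucp1, the uncoupling protein of thermogenic fat, was at 7.77, 7.65 and 6.69 and then 8.15, 6.39 and 6.32, a change of -0.42 (SE 0.43, adjusted p 0.675) with overlapping groups. Gabra3, a GABA receptor subunit, and Cyp39a1, an oxysterol hydroxylase, also dropped below log2 4, at least 2.10-fold and 1.37-fold. Their differences from cold were -1.62 and -1.22 (adjusted p 0.008 and 0.013). The filter admitted Gabra3 and Cyp39a1 only through the 1-week controls, so both were bound to be higher there.

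The other large falls were those of the tetrahydrobiopterin enzyme Spr (-1.68, adjusted p 0.0216), the TFIID subunit Taf8 (-1.43, 0.00374) and the urinary protein gene Mup10, at least 2.67-fold lower (0.0463). Mup10 belongs to a family of near-identical copies, so its probe set may read several. It was called in 1 of the 6 fits without a control array, and Spr in 3 (-1.95 to -1.33). Dhdh, a dihydrodiol dehydrogenase, rose by 2.56 (adjusted p 0.0324) from 6.64, 5.59 and 5.16 to 8.30, 8.35 and 8.44, and Prr32 by 1.92 (0.0272). They were called in 1 and 2 of the 6 fits (2.25 to 2.99 and 1.55 to 2.31), and neither with the Gapdh covariate.

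Few genes of the lipid programme of the tissue were called. No member was called among 54 oxidative phosphorylation, 23 tricarboxylic acid cycle and 23 fatty acid oxidation genes, with medians of -0.01, -0.02 and -0.04, beside 2.64% of all genes. With the Gapdh covariate these medians were -0.13, -0.22 and -0.28. Without 1-week control arrays 2 and 3 they were -0.15, -0.18 and -0.27. Insig1, the sterol-regulated brake on SREBP processing, rose from 9.51, 9.52 and 9.07 to 10.90, 10.74 and 10.14 (1.22, SE 0.21, adjusted p 0.0137), alone among 28 fatty acid and triglyceride synthesis genes. It lost the call without 1-week array 3 or 5-week array 1 or 2 (1.07 to 1.45) and with the Gapdh covariate (0.95, adjusted p 0.26). Hcar2, the receptor through which hydroxybutyrate restrains lipolysis, changed by -1.09 (SE 0.16, adjusted p 0.00668), from 7.30, 7.56 and 6.98 to 6.27, 5.96 and 6.33, alone among 18 lipolysis and lipid droplet genes. It was called in each fit without 1 control array and was -0.96 (adjusted p 0.16) with the Gapdh covariate. Leptin, the adipocyte satiety hormone, was at 10.65, 10.24 and 10.24 and then 10.79, 11.00 and 10.68, a difference of 0.45 (SE 0.16, adjusted p 0.151). The elongase Elovl3 (0.08), the Wnt antagonist Sfrp5 (0.06), the glyceroneogenic enzyme Pck1 (0.31) and Actb (0.17) were not called, and the Gapdh gene itself was not tested.

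Cholesterol synthesis was the one lipid pathway with several called members. Of 18 tested genes 4 fell and none rose, beside 1.3% of all genes that fell, and the median was -0.19. Cyp51, the lanosterol demethylase, was at 9.12 to 9.62 and then 8.59 to 8.72 (-0.72, adjusted p 0.0431), and Fdft1, squalene synthase, at 10.38 to 10.74 and then 9.82 to 9.97 (-0.69, 0.0234). Sqle, squalene epoxidase, and Idi1, which isomerises the isoprene unit, changed by -0.47 (0.0183) and -0.45 (0.0419). Fdft1, Idi1 and Cyp51 each had another probe set that was not called (-0.20, -0.36 and -0.38). Cyp51 and Idi1 lost the call in each fit without 1 control array, Sqle and Fdft1 in 4 of 6 (-0.52 to -0.44 and -0.80 to -0.61), and none was called with the Gapdh covariate. On the 6 control arrays 6 of the 18 were called down, beside 1.44% of all genes. In cold 13 of the 18 fell over the same weeks, with a median of -0.57, beside 26.8% of all genes called in either direction there.

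In adrenergic and insulin signalling 2 of 20 tested genes fell and none rose, beside 1.3% and 1.35% of all genes. Pik3r1, the regulatory subunit of phosphoinositide 3-kinase, changed by -1.12 (SE 0.16, adjusted p 0.00706), from 11.81, 11.21 and 11.48 to 10.45, 10.51 and 10.20, with other probe sets at -1.67, 0.54 and 0.37. Insr, the insulin receptor, changed by -0.43 (adjusted p 0.0325), and the difference from its cold change of 0.26 was called (adjusted p 0.0081). Insr was called in 1 of the 6 fits without a control array (-0.48 to -0.40), and neither gene with the Gapdh covariate. Of 19 glucocorticoid-response genes 2 rose, the metallothioneins Mt1 and Mt2, and 2 fell, Pik3r1 and the EGF receptor inhibitor Errfi1, beside 1.35% and 1.3% of all genes. Mt2, a metal-binding stress protein, was at 9.92, 10.28 and 10.07 and then 10.89, 10.79 and 10.84 (0.75, SE 0.10, adjusted p 0.00525). It was called in each fit without 1 control array, and its change was 0.84 (adjusted p 0.054) with the Gapdh covariate. Mt1 changed by 0.56 (0.0371) and Errfi1 by -0.65 (0.0447), called in 1 and 0 of those 6 fits (0.48 to 0.67 and -0.75 to -0.52).

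Connective tissue and progenitor genes moved in both directions. Pi16, a marker of interstitial progenitors, was at 10.96, 10.90 and 10.34 and then 9.65, 9.24 and 9.37 (-1.31, SE 0.24, adjusted p 0.0195). It also changed by -1.53 in cold, with no called difference (0.22, adjusted p 0.7). Mest, an imprinted gene whose level in fat goes with adipocyte enlargement, was at 7.96, 6.81 and 7.42 and then 8.66, 8.81 and 8.72 (1.33, SE 0.26, adjusted p 0.0226). Its cold change was -0.44 and the difference of 1.77 was called (adjusted p 0.011). Mest was lost without 1-week array 2 or 3 or any 5-week array (1.04 to 1.62) and was 0.98 with the Gapdh covariate. Pi16 was lost without 1-week array 2 or 5-week array 2 or 3 (-1.51 to -1.20), but was called with the Gapdh covariate (-1.92, adjusted p 0.017). Of 33 matrix genes Bgn, the proteoglycan biglycan (0.55, adjusted p 0.02), and Col18a1, the collagen that yields endostatin (0.74, 0.0346), rose and the laminin chain Lamb1 fell (-0.77, 0.0137), beside 2.64% of all genes called. Bgn and Col18a1 were each called in 1 and Lamb1 in 4 of the 6 fits without a control array (0.47 to 0.60, 0.63 to 0.90 and -0.84 to -0.68). The imprinted gene Nnat, at 13.59 to 13.78 in all 6 arrays, changed by -0.06.

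Stress and growth lists held 1 or 2 calls each, beside 2.64% of all genes. The chaperone partner Hspb6 rose (1.43, adjusted p 0.0152) and the Hsp110 chaperone Hsph1 fell (-0.58, 0.0354) among 25 heat shock genes, the interferon-induced Oasl2 fell (-0.71, 0.0362) among 25, the lactate carrier Slc16a1 fell (-0.70, 0.0266) among 29 hypoxia and glycolysis genes, and the cyclin Ccnd3 rose (0.87, 0.0466) among 34 cell cycle genes. Of these, Hspb6 and Slc16a1 were called in 2, Oasl2 and Ccnd3 in 1 and Hsph1 in 0 of the 6 fits without a control array, and none with the Gapdh covariate. The interferon list had the lowest median outside the clock, at -0.32. That median was -0.03 with the Gapdh covariate and -0.05 without 1-week control arrays 2 and 3. In the interferon list Ifit1, an inhibitor of viral translation, was at 8.14, 8.13 and 8.84 and then 6.68, 7.36 and 7.35 (-1.24, adjusted p 0.0894). No member was called in the ribosome, proteasome, unfolded protein, immediate early, complement, neutrophil, pericyte, nerve or erythrocyte lists.

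**Figure D4:**
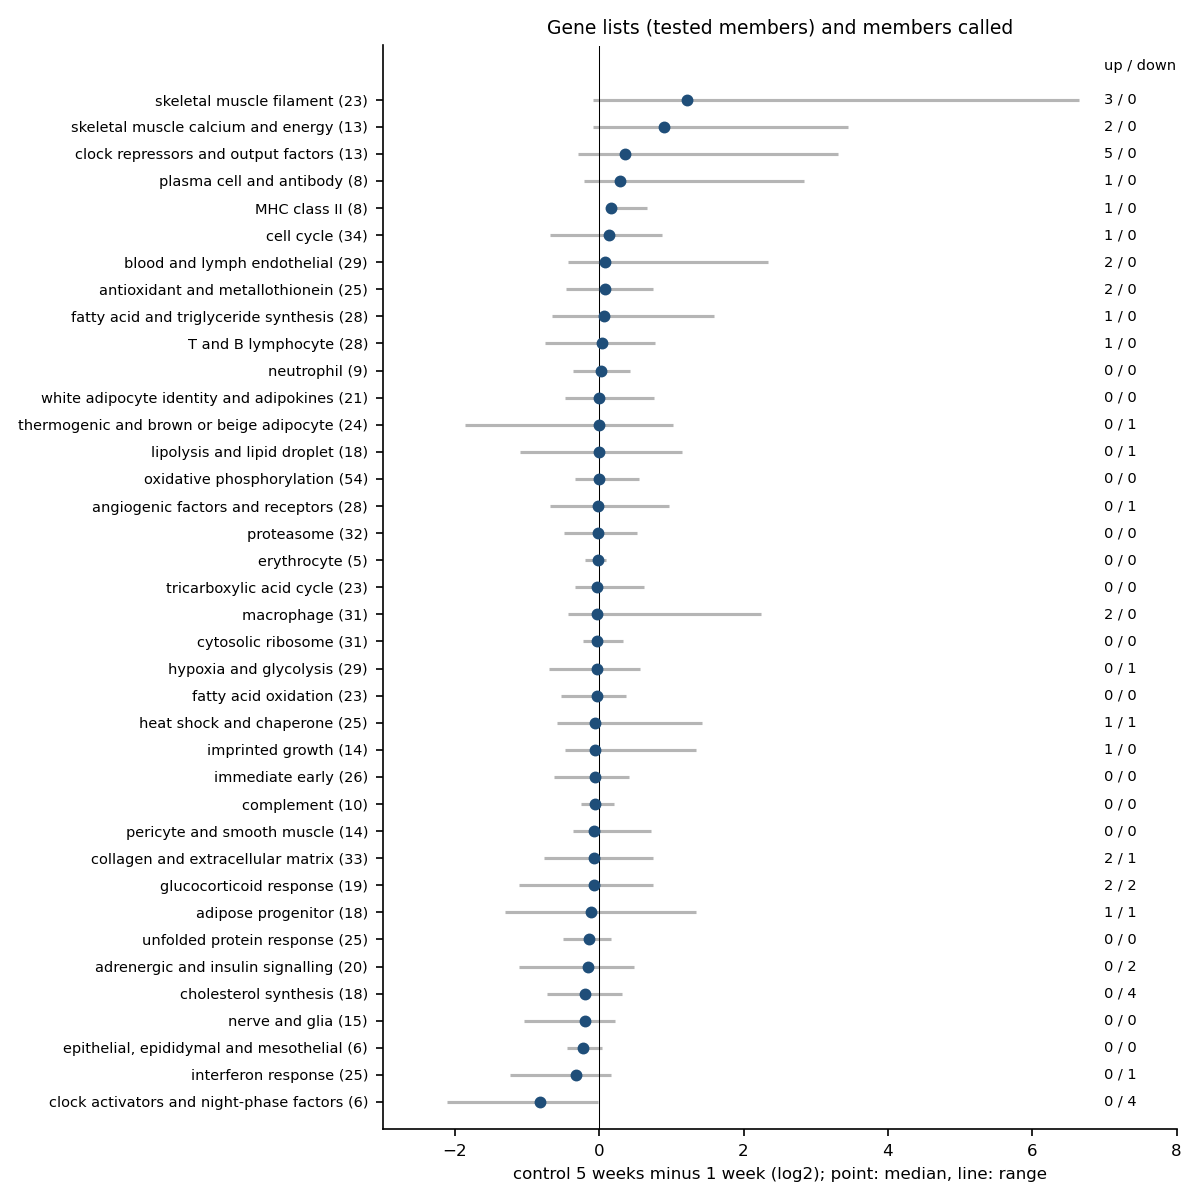
Median change from 1 to 5 weeks in controls (point, log2) and the lowest to highest member (line) for each of the 38 gene lists, with tested members in brackets and members called up and down at the right. Both muscle lists and the list of clock repressors and output factors have the highest medians. The list of clock activators and night-phase factors has the lowest, at -0.82, while most other medians lie near 0.

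In the cold mice over the same weeks 7538 probe sets (28.4%) were called between 1 and 5 weeks. Of the 883 control calls 235 were called in the same direction in cold, 26.6% of the control calls and 3.12% of the cold ones, and 138 in the opposite direction, 15.6% and 1.83%. Probe sets that rose in controls were called up in cold in 122 cases and down in 112, and those that fell were called down in 113 and up in 26. The difference between the control and the cold change was called for 5203 probe sets (19.6%), 514 of the 883 among them, 369 that rose and 145 that fell. It was 5 with the Gapdh gap as a covariate, 0 with that of Actb and 331 without 1-week control arrays 2 and 3. The Gapdh gap was -0.08, 0.34 and -0.08 in the 1-week and 0.96, 0.19 and 3.01 in the 5-week cold arrays, so RNA quality was uneven on the cold side too. The Actb gap was 1.01 to 1.33 and then 1.84 to 2.80 there. Since the Gapdh gap separates the control groups and the Actb gap separates both the control and the cold groups, quality and week cannot be told apart in these fits. The difference count was 2924 without 1-week control array 2, 2918 and 2838 without 5-week control arrays 1 and 2, and 3290 without 5-week cold array 3.

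**Figure D5:**
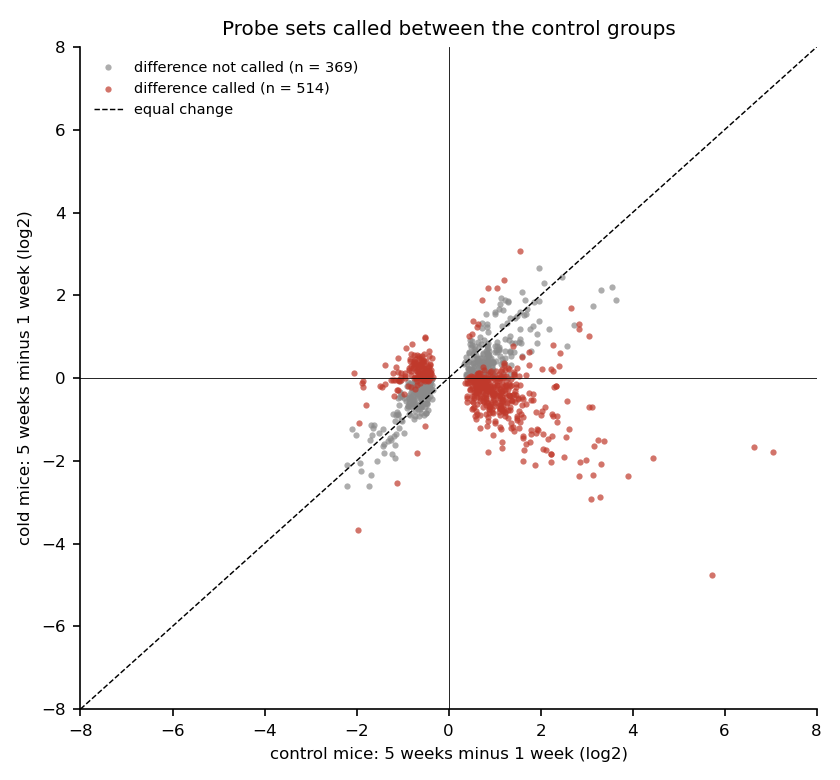
Change from 1 to 5 weeks (log2) in controls (x axis) and in cold mice (y axis) for the 883 probe sets called between the control groups, red where the difference between the changes was called (514) and grey where it was not (369); the dashed line marks equal change. Colour follows the test of the difference, so grey points tend toward the line by construction. Most red points on the right lie at or below 0 on the y axis, with the Myh1 probe sets farthest right.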

How the data were processed

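Total RNA (Trizol, 5 µg) of white adipose tissue was hybridised to 12 Affymetrix arrays. The deposited values are log2 signals per probe set that the authors made with GCRMA, per the submitters' processing notes; the sources used here give no further settings. Of 45101 probe sets, 64 controls were set aside and 26510 with a signal above log2 4 on at least 3 arrays were tested, 22378 of them naming 1 gene. A gene is its brightest probe set.

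limma 3.58.1 (R 4.3.3) fitted 4 group means to all 12 arrays, giving control 5 weeks minus 1 week, the same in cold, and their difference, with Benjamini-Hochberg adjustment over all tested probe sets at 0.05. The script was tested on simulated data. "At least" folds set signals under log2 4 to 4. Arrays give no depth, and 3 a group limit the precision. Replicate numbers did not pair the arrays (correlations of deviations -0.009, -0.013 and -0.003), and at most 6 values were identical between arrays of a group.

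The comparison and its 38 gene lists were chosen with earlier results of these data known. Named are the 12 largest rises and falls that did not overlap, leaving out clone and locus names, all clock and muscle genes, 11 fixed genes, up to 4 members of each other list by smallest adjusted p, and 5 pattern genes each for Dbp and muscle. Alternatives were other filters, normalizations, variance models, RNA-quality and muscle covariates, and left-out arrays.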

Additional observations from a re-analysis of the deposited data

Results flagged for a closer look

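The differences from cold were gone through for the largest rises and falls and for the genes fixed by name, and the results below are those among them whose change over the weeks differed between controls and cold mice by a test of the difference itself (limma, adjusted p under 0.05), given as the control change minus the cold change in log2 units. Other list members whose difference was called, such as Il10ra, Cd6, Ciita and Insr, stand with their own values in the report. Over all probe sets 5203 differed, and that count was 5 with the Gapdh 3′ minus 5′ gap as a covariate.

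Among muscle genes Myh1 differed by 8.30, Acta1 by 7.94, Tnnc2 by 7.38, Tnnt3 by 7.19, Atp2a1 by 5.87, Apobec2 by 3.75, Mb by 3.12, Smpx by 2.78, Ttn by 2.70, Neb by 2.37, Myl1 by 1.79 and Cox6a2 by 1.57. The 1-week cold array 2, with a sarcomere mean of 7.86, enters each of them. Myh1, Tnnt3, Apobec2, Smpx and Neb had passed the filter only through the 5-week controls, so these were bound to be higher there. Several signals lay below log2 4, so some sizes are not exact: with these set to 4, a choice made after the values were seen, the differences were 7.08 for Myh1, 5.88 for Tnnt3, 2.63 for Apobec2, 0.84 for Smpx and 0.45 for Neb. Among the other large rises Plvap differed by 2.54, Igk by 2.02, Igha by 1.53 and Dbp by 0.96. Of the other clock genes Bhlhe40 differed by 1.80, Clock by -0.70 and Rora by -0.58. Mest differed by 1.77. Among the falls Slc27a2 differed by -1.78, Gabra3 by -1.62 and Cyp39a1 by -1.22. With signals under log2 4 set to 4 these 3 were -0.87, -1.07 and -0.46. Gabra3 and Cyp39a1 had passed the filter only through the 1-week controls, so they were bound to be higher there.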

How the results depend on the processing

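The 883 called probe sets (562 up, 321 down) kept their direction in every alternative that tested them. The count was 102 (50 up, 52 down) with the Gapdh gap as a covariate, 113 (60 and 53) without both 1-week control arrays of high Gapdh gap, 556 (353 and 203) with the sarcomere mean, 28 (16 and 12) with the 5-week controls averaged as 1 sample, and 411 (265 and 146) with 1 mean per gene. With the last, fewer features were tested. Without a filter 351 were called up, and with arrays centred on their median 482 down and 464 up, which moves the rises from 63.6% to 49.0% of calls. Leaving out 1 array gave 232 to 1634 calls, 151 to 1043 up and 81 to 591 down. Fits that left out control arrays could not reverse the direction of the 340 called genes, whose 1-week and 5-week arrays did not overlap. A replicate block gave 634 calls, although the numbers do not pair the arrays. The differences from cold numbered 5203, and 5 with the Gapdh gap, 0 with the Actb gap, 2235 with 1 mean per gene, 331 without both 1-week arrays, and 2838 to 6034 without 1 array. Clock activators and night-phase factors called down were 4, but 2 with the Gapdh gap (2 to 4 without 1 array). They were fewer with the 5-week controls averaged and without both 1-week arrays. Clock repressors and output factors called up were 5, but 3 on the control arrays alone, 2 with the Gapdh gap and 3 with the sarcomere mean (3 to 5 without 1 array). They were fewer with averaging too. Muscle genes called up were 5, but 22 on the control arrays alone, 3 without a filter, 3 with a filter at log2 6, 1 with the Gapdh gap, 3 with the sarcomere mean, 0 with averaging and 1 without both 1-week arrays (1 to 22 without 1 array). With the sarcomere mean as a covariate the changes of Myh4 (-1.32), Actn3 (-1.95), Mybpc2 (-1.43), Pgam2 (-1.69) and Pygm (-1.09) turned negative. With signals under log2 4 set to 4, an alternative chosen after seeing the data, Elovl3 (0.08, not called) was at -0.21. Apart from these the cause was not tested. Of the 63 named genes called, 16 kept the call with the Gapdh gap, 18 without both 1-week arrays and 26 to 62 without 1 array.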

Other observations

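Of the 340 genes called, 55 were also called in each of the 6 fits without 1 control array and on the 6 control arrays alone. Of these, 21 were called with the Gapdh covariate and 18 without 1-week control arrays 2 and 3 as well. The 5 that rose were Igha, Dbp, Plvap, Mb and Nr1d2. The 13 that fell were Rraga, Hsd17b12, Slc27a2, Gabra3, Vapb, Ap2b1, Arntl, Gigyf2, Zc3h7b, Prmt9, Ccdc71, Dynll2 and Dnajc7. Among them Gabra3 had passed the filter only through the 1-week controls, so it was bound to be higher there. Of the fallers 8 were called down in cold too, and for 6 the difference was called.

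Gigyf2, Zc3h7b, Prmt9, Ccdc71, Dynll2 and Dnajc7 lie outside the naming rule and were chosen after their values were seen. Gigyf2, a partner of the translation repressor 4EHP, was at 7.70, 7.88 and 7.82 at 1 week and changed by -1.12 (SE 0.11, adjusted p 0.000849). Prmt9, an arginine methyltransferase, changed by -1.03 and Zc3h7b, a zinc-finger protein, by -1.07, against -0.04 and -0.05 in cold, with the difference called for both (adjusted p 0.0038 and 0.0037). Dynll2, a dynein light chain, changed by -0.86 in controls and in cold alike (adjusted p of the difference 0.99). Ccdc71 changed by -0.96 and Dnajc7, a co-chaperone of Hsp70 and Hsp90, by -0.80.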
